A study of Homo sapiens with 8 samples.

Results

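Quiescent stellate cells are the resting, vitamin A storing pericytes of the liver sinusoid, and 9 genes commonly used to describe that state were examined in LX-2 cells: LRAT, PPARG, HGF, NGFR, CYGB, TCF21, LHX2, PLIN2 and ECM1. The genes were set by symbol, with earlier results of these data known, and 7 of the 9 are rows of the 14870-row table analysed. LRAT and PPARG are not listed in the table used here, so 2 of the genes most often used to define quiescence have no value below. The comparison asks what the relaxin receptor agonist ML290 does to this gene set in cells held under TGF-β1.

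LX-2 is an established human hepatic stellate cell line propagated in low serum, so the data describe 1 line and no variation between donors. All cells received recombinant human TGF-β1, a main fibrogenic signal for stellate cells in liver, for 72 h in medium with 2% serum. In 1 group of 4 cultures it was combined with the solvent DMSO, and in the other group of 4 with 5 µM ML290, a small-molecule agonist of RXFP1. There was no group without TGF-β1, so a value below does not show how far TGF-β1 itself had moved a gene.

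When the liver is injured, stellate cells lose their retinoid-filled lipid droplets and the transcription factors that hold them in the resting state, and turn into contractile, collagen-secreting myofibroblasts. LRAT esterifies retinol for storage, PLIN2 coats the lipid droplets in which the esters are kept, and PPARG is the nuclear receptor shared with fat cells that favours the lipid-storing state. TCF21 and LHX2 are transcription factors of stellate and other mesenchymal cells, and loss of Lhx2 in mice leads to activated stellate cells. HGF, NGFR and ECM1 act outside the cell or at its surface, and CYGB is a globin first found in stellate cells of the rat.

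Values are normalised read counts, 1 mean per gene and group as the authors deposited it, with no value per sample. No SD, and no count of samples that show a direction, can therefore be given, and the only test is the authors' own, whose method is not given in the sources used here. A gene is called changed where the adjusted p in the authors' deposited table is under 0.05. Among all 14870 rows, 5226 were called (35.1%), 19.5% higher with ML290 and 15.6% lower. The low values lie near whole multiples of a common step, which gave the approximate number of reads behind a group mean, and 95% intervals derived from those reads cover counting error only, not the spread between cultures. Reads without molecular identifiers are not independent molecules, so these intervals are lower limits of the true error.

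TCF21 and PLIN2 rose with ML290, and the other 5 listed genes did not pass the test. The authors' deposited table thus calls 2 of 7 higher (28.6%) and 0 lower, against 35.1% of all rows called, so the share called lies near the background. At an unadjusted p under 0.05 in the authors' deposited table the counts were also 2 higher and 0 lower, among 44% of all rows called. The same pair passed a minimum fold of 1.5 besides the adjusted p, a rule met by 10.8% of all rows, 6.01% higher and 4.77% lower. They also passed the Benjamini-Yekutieli adjustment, met by 19.1% of all rows, 10.9% higher and 8.18% lower, and an adjusted p under 0.01, met by 23%. Among rows with a mean of at least 1, where CYGB drops out, 40.4% were called. The median log2 ratio of the 7, ML290 over DMSO, was 0.28, beside 0.02 over all rows. That median is the value of CYGB, which rests on about 34 reads, and with a pseudocount of 0.5 the median was 0.17, also beside 0.02. The share of rows called depends on level, being 9.34% below a mean of 1, 28.5% from 1 to 10, 41.5% from 10 to 100 and 57.2% above. CYGB lies in the lowest of these ranges, TCF21, NGFR and HGF in the second, and LHX2, PLIN2 and ECM1 in the third.

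The 300 bases around the annotated start of TCF21 and PLIN2, the pair of genes that rose, are shown with those of ECM1, the most abundant gene that did not pass. They run from 250 bases before the start to 50 after, on the gene's own strand, and come from RefSeq on GRCh38.p14. Of the 9 genes, 7 matched an entry by symbol, all but NGFR and CYGB. The TCF21 window is chr6:133888863-133889162 on the plus strand, that of PLIN2 chr9:19127443-19127742 on the minus strand, around a start inside the gene's full GENCODE span, and that of ECM1 chr1:150507859-150508158 on the plus strand. Capitals mark every match, on either strand, to one of the motifs searched.
TCF21: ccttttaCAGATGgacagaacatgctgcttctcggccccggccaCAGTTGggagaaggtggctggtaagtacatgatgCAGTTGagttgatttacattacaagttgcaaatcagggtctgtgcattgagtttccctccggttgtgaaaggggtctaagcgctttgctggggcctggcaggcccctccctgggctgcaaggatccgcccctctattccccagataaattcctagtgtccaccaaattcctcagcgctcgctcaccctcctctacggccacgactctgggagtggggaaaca
PLIN2: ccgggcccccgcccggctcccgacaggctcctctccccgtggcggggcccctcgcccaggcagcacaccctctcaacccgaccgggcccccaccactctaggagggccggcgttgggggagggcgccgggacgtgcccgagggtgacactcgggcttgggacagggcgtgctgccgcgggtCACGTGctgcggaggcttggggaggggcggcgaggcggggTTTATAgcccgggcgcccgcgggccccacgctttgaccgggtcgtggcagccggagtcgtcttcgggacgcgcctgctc
ECM1: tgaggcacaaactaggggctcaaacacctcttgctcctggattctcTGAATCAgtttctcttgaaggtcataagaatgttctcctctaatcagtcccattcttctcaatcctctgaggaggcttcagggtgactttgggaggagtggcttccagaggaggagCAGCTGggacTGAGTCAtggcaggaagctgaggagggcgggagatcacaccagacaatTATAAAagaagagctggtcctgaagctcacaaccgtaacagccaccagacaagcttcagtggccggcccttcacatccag

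The motifs searched were the E-box CANNTG bound by basic helix-loop-helix factors, its palindromic form CACGTG, the cyclic AMP response element TGACGTCA and its part TGACG, the AP-1 site TGANTCA, the SMAD-binding element GTCTAGAC, the PPAR response element, here the letters AGGTCA repeated after 1 base, and the TATA box TATAAA. In TCF21 the 3 matches were E-boxes, CAGATG at 243 bases before the start and CAGTTG at 206 and at 172. PLIN2 held 1 CACGTG at 69 bases before the start, counted under both E-box forms, and the letters of a TATA box on the opposite strand at 29. ECM1 held matches to TGANTCA at 204 (TGAATCA) and 78 (TGAGTCA) bases before the start, an E-box at 88 and a TATA box at 30. Of 35116 RefSeq promoter windows of this length, 68.7% held CANNTG, 7.26% CACGTG, 7.71% TGANTCA, 11.5% TATAAA, 24.6% TGACG, 1.85% TGACGTCA, 0.202% GTCTAGAC and 0.0228% the PPAR element. None of the 3 windows held either cyclic AMP motif, the SMAD element or the PPAR element. A match describes letters and not binding.

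Among the lipid-storage genes, PLIN2 was higher with ML290. The authors' deposited table gives PLIN2, the perilipin that covers the droplets of most non-adipose cells, a mean of 19.9 with ML290 and 12.6 with DMSO. Both values rest on many reads, about 1526 and 1056 over the 4 libraries of a group. PLIN2 was 1.59-fold higher by the authors' deposited table (log2 ratio 0.66, adjusted p = 0.000123), and the counting interval of the ratio ran from 1.46 to 1.72. By ratio PLIN2 was row 961 of 14870, above 93.5% of rows. The gene lies on chromosome 9 from 19108375 to 19149290 (GRCh38, GENCODE 29).

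Of 30 other lipid droplet genes named, 26 were listed, and the authors' deposited table calls 9 higher and 3 lower (46.2% against 35.1% of all rows, 19.5% higher and 15.6% lower), with a median log2 ratio of 0.14 beside 0.02 over all rows. The largest increase among the called was G0S2, an inhibitor of the triglyceride lipase PNPLA2, with 85.7 against 24.4 in the authors' deposited table (3.51-fold higher at an adjusted p of 5.47e-08). PNPLA2 itself rose too, from 76.2 to 124.8 in the authors' deposited table (1.64-fold at an adjusted p of 6.66e-05), so a lipase and its inhibitor were both higher. SOAT1, which makes cholesterol esters, was 1.34-fold higher and DGAT1, which completes triglycerides and can esterify retinol, 1.24-fold higher by the authors' deposited table (adjusted p = 0.000314 and 0.0246). Perilipins did not move as one. PLIN3 fell, 1.16-fold lower with 132.7 against 153.3 in the authors' deposited table (adjusted p = 0.0262). PLIN4 had 4.66 against 4.50 and PLIN1 0.353 against 0.322 in the authors' deposited table (adjusted p = 0.822 and 0.738), and PLIN5 was not listed. Besides PLIN3, the droplet genes called lower were PNPLA3, 1.76-fold, and ACSL3, 1.30-fold, in the authors' deposited table (adjusted p = 0.00135 and 0.00117).

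With LRAT unlisted, retinoid handling was read from 26 other genes, of which 18 were listed. The authors' deposited table calls 2 higher and 3 lower, 27.8% against the 35.1% of all rows, with a median log2 ratio of -0.11. STRA6, the membrane receptor that takes retinol up from its plasma carrier, was low and fell from 1.39 to 0.315 in the authors' deposited table (4.42-fold lower at an adjusted p of 0.00166). About 117 reads with DMSO and 24 with ML290 stand behind STRA6. RDH14, a retinol dehydrogenase, was 1.47-fold higher and the retinoic acid receptor RARA 1.30-fold higher by the authors' deposited table (adjusted p = 0.00118 and 0.0064). Another such receptor, RARG, was 1.15-fold lower and ADH5 1.14-fold lower by the authors' deposited table (adjusted p = 0.0408 and 0.0252). RARB, a receptor gene that retinoic acid itself induces, had 3.06 against 3.97 in the authors' deposited table and missed the threshold (adjusted p = 0.0552). The shared partner receptor RXRA stood at 61.6 against 56.9 in the authors' deposited table (adjusted p = 0.283).

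Genes that work with or under PPARG were called often but in both directions. Of 26 named, 21 were listed, and the authors' deposited table calls 7 higher and 6 lower (61.9% against 35.1% of all rows), with a median log2 ratio of -0.02. CEBPB, an early factor of fat cell differentiation that is also a stress and cytokine response gene, rose from 112.0 to 307.6 in the authors' deposited table (2.75-fold at an adjusted p of 9.23e-07). Its relative CEBPD fell from 54.4 to 23.8 in the authors' deposited table (2.29-fold lower at an adjusted p of 0.000107). CEBPA, the late factor that works beside PPARG in fat cells, was near the floor with 0.602 against 0.299 and just missed the threshold in the authors' deposited table (adjusted p = 0.0504). PPARA, the sister receptor that drives fatty acid oxidation, was 2.00-fold higher and the secreted lipase inhibitor ANGPTL4, a target of PPAR receptors, 2.23-fold higher at means of 1.62 and 0.726 in the authors' deposited table (adjusted p = 1.52e-07 and 0.00702). The fat cell targets FABP4, CD36 and ADIPOQ, and the coactivator PPARGC1A, were not listed.

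Of the transcription factors, TCF21 had the largest ratio of the 7 genes. In the authors' deposited table TCF21, a basic helix-loop-helix factor of mesenchymal precursors that has been described in mice as a factor able to return stellate cells toward rest, had a mean of 2.47 with ML290 and 0.665 with DMSO. This was 3.72-fold higher by the authors' deposited table (log2 ratio 1.89, adjusted p = 0.00011), row 61 of 14870 by ratio. The depth behind TCF21 is small, about 189 reads with ML290 and 56 with DMSO over 4 libraries each, and the counting interval of the ratio ran from 2.73 to 5.08. TCF21 lies on chromosome 6 from 133889138 to 133895553 and overlaps the antisense gene TARID on the other strand, which was not listed. Since the use of strand in counting is not given, whether reads of the pair were kept apart cannot be said.

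LHX2 did not pass the test. The LIM homeodomain factor had 12.8 with ML290 and 14.3 with DMSO, per the authors' deposited table (1.12-fold lower at an adjusted p of 0.325). Its counting interval, a ratio of 0.821 to 0.973, lies below 1, but it leaves out the spread between cultures that the authors' test had available. LHX2 lies on chromosome 9 from 124001670 to 124033301.

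Of 23 E-proteins, LIM-only proteins, LIM homeodomain factors and their cofactors, 15 were listed, and the authors' deposited table calls 1 higher and 5 lower (40.0% against 35.1% of all rows), with a median log2 ratio of -0.08. LHX9, the closest relative of LHX2, fell from 2.61 to 0.954 in the authors' deposited table (2.73-fold lower at an adjusted p of 7.27e-05). SSBP2, which stabilises the LIM-domain adaptor LDB1, was 1.89-fold lower, and LMO4, a LIM-only protein that competes for LDB1, was the member called higher, 1.44-fold, in the authors' deposited table (adjusted p = 3.58e-05 and 8.71e-05). LDB1 had 41.8 against 45.1 and the E-protein TCF12, a dimer partner of TCF21, 51.3 against 50.8 in the authors' deposited table (adjusted p = 0.274 and 0.916). Another E-protein, TCF4, was 1.48-fold lower by the authors' deposited table (adjusted p = 0.000165).

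Of 16 other factors linked to the resting state, 13 were listed, and 5 were called higher and 1 lower by the authors' deposited table, with a median log2 ratio of 0.07 beside 0.02 over all rows. That is 46.2% called against 35.1% of all rows. NR4A1, an orphan receptor and immediate-early gene, was 2.39-fold higher, ETS2 1.63-fold and the mesenchymal forkhead factor FOXF1 1.55-fold higher by the authors' deposited table (adjusted p = 4.79e-06, 1.11e-05 and 1.91e-05). The lower one was WT1, 1.33-fold lower at 4.49 against 5.96 in the authors' deposited table (adjusted p = 0.0191).

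Neither of the signalling genes HGF and NGFR passed the test. HGF, the hepatocyte growth factor that stellate cells secrete, had 6.56 with ML290 and 5.75 with DMSO, per the authors' deposited table (1.14-fold higher at an adjusted p of 0.504). About 503 and 484 reads stand behind HGF, and the counting interval of its ratio ran from 1.004 to 1.29. Its receptor MET did rise, from 66.0 to 98.2 in the authors' deposited table (1.49-fold at an adjusted p of 5.84e-05). Of 14 genes that activate HGF, inhibit that step or carry its signal, 9 were listed, with 3 called higher and 0 lower by the authors' deposited table, also 3 and 0 at an unadjusted p under 0.05, and a median log2 ratio of 0.29. The 33.3% called lies near the 35.1% of all rows. Besides MET these were the urokinase PLAU, which can cleave the HGF precursor, and the surface glycoprotein CD44, a co-receptor of MET, both 1.23-fold higher by the authors' deposited table (adjusted p = 0.00123 and 0.00539). HGF lies on chromosome 7 from 81699008 to 81770438.

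NGFR, the p75 neurotrophin receptor that marks stellate cells in liver, had 1.87 with ML290 and 1.4996 with DMSO, per the authors' deposited table (1.25-fold higher at an adjusted p of 0.539). That is about 144 and 126 reads, and the counting interval of the ratio, 0.980 to 1.60, includes 1. The ligand BDNF fell from 18.3 to 12.5 in the authors' deposited table (1.47-fold lower at an adjusted p of 0.00128). MAGED1, which binds the inner part of NGFR, was 1.39-fold higher, while SORT1, its co-receptor for neurotrophin precursors, was 1.11-fold lower by the authors' deposited table (adjusted p = 2.65e-05 and 0.0245). Of the neurotrophin receptor kinases, NTRK3 was 1.41-fold lower at 2.96 against 4.19 in the authors' deposited table (adjusted p = 0.00911), and NTRK2 was not listed. Of 16 genes of this system 11 were listed, 2 called higher and 4 lower by the authors' deposited table (54.5% against 35.1% of all rows), with a median log2 ratio of -0.15. NGFR lies on chromosome 17 from 49495293 to 49515017.

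ECM1, the most abundant of the 7, was nearly level between the groups. This secreted glycoprotein, which in mouse liver holds TGF-β in its latent form by keeping αv integrins away from it, had 87.3 with ML290 and 91.0 with DMSO, per the authors' deposited table (1.04-fold lower at an adjusted p of 0.575). With about 6692 and 7654 reads the counting interval of the ratio was narrow, 0.928 to 0.991. ECM1 lies on chromosome 1 from 150508062 to 150513789. Of 16 integrins, latent TGF-β proteins and TGF-β ligands, all listed, 4 were called higher and 4 lower by the authors' deposited table (50% against 35.1% of all rows), with a median log2 ratio of -0.15. THBS1, an activator of latent TGF-β, was 2.17-fold lower, the ligand TGFB2 2.23-fold lower and the integrin chain ITGB8, which frees TGF-β together with ITGAV, 2.22-fold lower by the authors' deposited table (adjusted p = 4.68e-08, 3.83e-07 and 1.95e-05). Called higher were NRROS, 2.21-fold at 2.19 against 0.987, LTBP1, 1.42-fold, ITGB3, 1.20-fold, and ITGAV, 1.17-fold, by the authors' deposited table (adjusted p = 0.000844, 0.000151, 0.0292 and 0.0464).

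CYGB was close to the lower end of the table. The globin had 0.231 with ML290 and 0.190 with DMSO, per the authors' deposited table (1.21-fold higher at an adjusted p of 0.869), ranking 14521 of 14870 by level. About 18 reads with ML290 and 16 with DMSO stand behind CYGB, against about 18 reads over all 8 libraries for the smallest row of the table. The counting interval of its ratio ran from 0.594 to 2.59. Around it, 18 of 21 other genes of oxidant defence and oxygen handling were listed, 5 called higher and 5 lower by the authors' deposited table (55.6% against 35.1% of all rows), with a median log2 ratio of -0.03. Mitochondrial SOD2 was 4.89-fold higher, cytosolic SOD1 1.25-fold lower and the peroxidase GPX8 1.25-fold higher by the authors' deposited table (adjusted p = 5.38e-09, 0.00054 and 0.000689). CYGB lies on chromosome 17 from 76527356 to 76551175 and overlaps PRCD on the other strand, which was not listed.

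**Figure D1:**
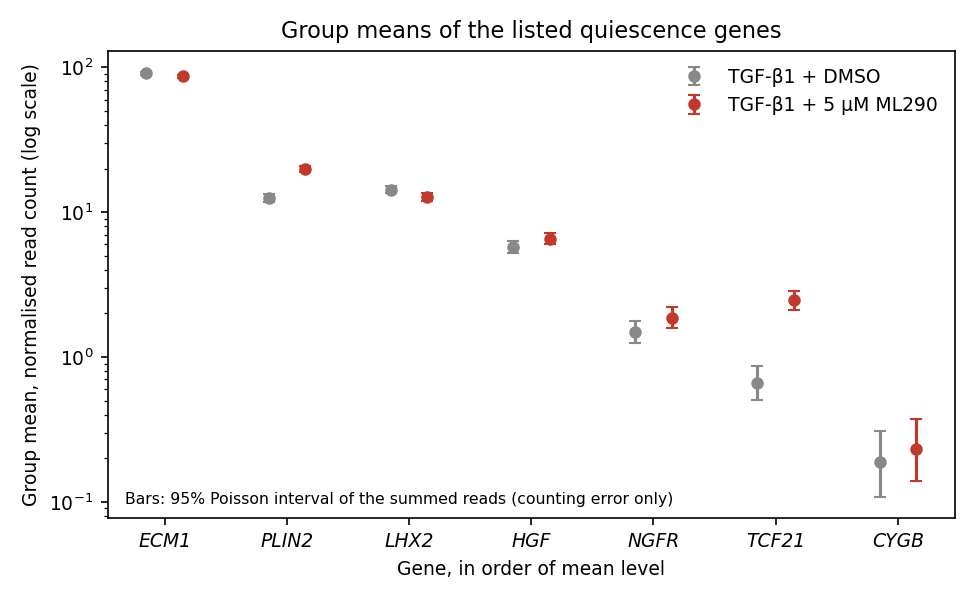
Group mean of each of the 7 listed genes in normalised read counts on a log axis, grey for TGF-β1 with DMSO and red for TGF-β1 with ML290; bars are 95% Poisson intervals of the summed reads and cover counting error only. The bars of TCF21 (2.47 against 0.665) and PLIN2 (19.9 against 12.6) stand apart, while those of CYGB overlap widely.

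To compare the genes with each other, levels were divided by the length of the longest GENCODE coding transcript. Per kilobase with DMSO, ECM1 had 44.0, PLIN2 6.37, LHX2 5.61, HGF 0.961, NGFR 0.439, TCF21 0.146 and CYGB 0.0880. With ML290 the levels per kilobase were 42.2 for ECM1, 10.1 for PLIN2, 5.01 for LHX2, 1.10 for HGF, 0.549 for NGFR, 0.543 for TCF21 and 0.107 for CYGB. The order was the same in both groups, but TCF21 lay well below NGFR with DMSO and beside it with ML290. Without values per sample, whether neighbours in this order differ beyond the spread between cultures cannot be said.

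**Figure D2:**
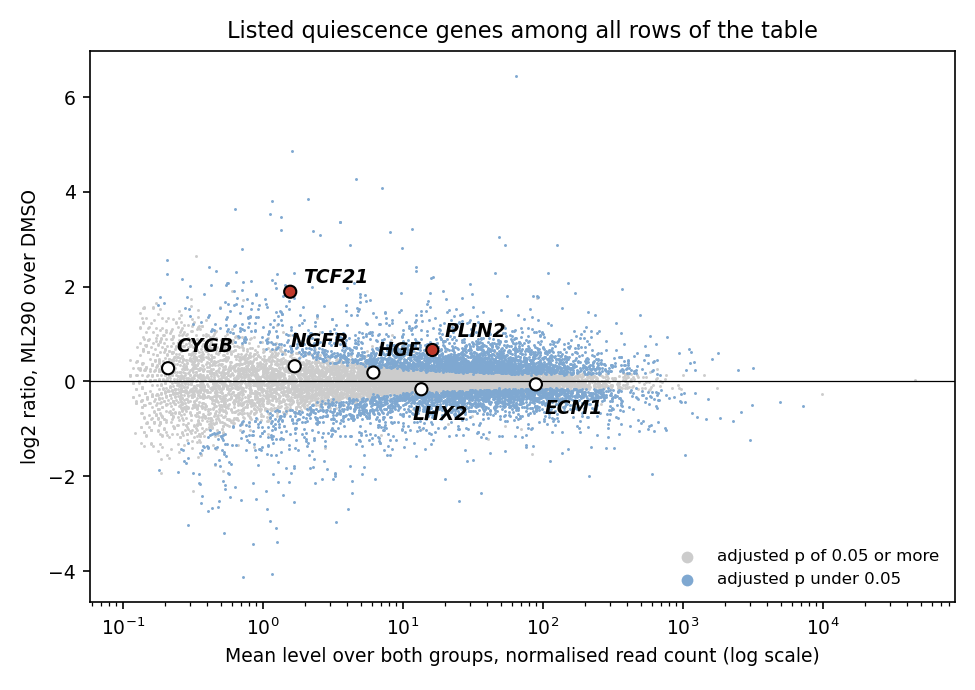
The log2 ratio of ML290 over DMSO against mean level (normalised read count, log axis) for all 14870 rows, blue where the adjusted p is under 0.05 and grey otherwise, with the 7 genes as large circles, filled red where called. TCF21, at a log2 ratio of 1.89, and PLIN2, at 0.66, lie among the called rows and the other 5 lie in the grey band.

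Genes of activated stellate cells were mostly lower with ML290. All 23 named were listed, and 16 were called lower and 3 higher by the authors' deposited table (82.6% against 35.1% of all rows), with a median log2 ratio of -0.94 beside 0.28 for the 7 quiescence genes, or -0.94 beside 0.17 with a pseudocount of 0.5. These lists were drawn up with earlier results of these data known, and the difference between them was not tested. The actin ACTA2 was 2.98-fold lower and the collagen chain COL1A1 2.34-fold lower by the authors' deposited table (adjusted p = 8.90e-08 and 1.45e-06). The 10 lists related to the quiescence genes held 161 distinct listed genes, of which 40 were called higher and 37 lower by the authors' deposited table (47.8%), with a median log2 ratio of -0.03.

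**Figure D3:**
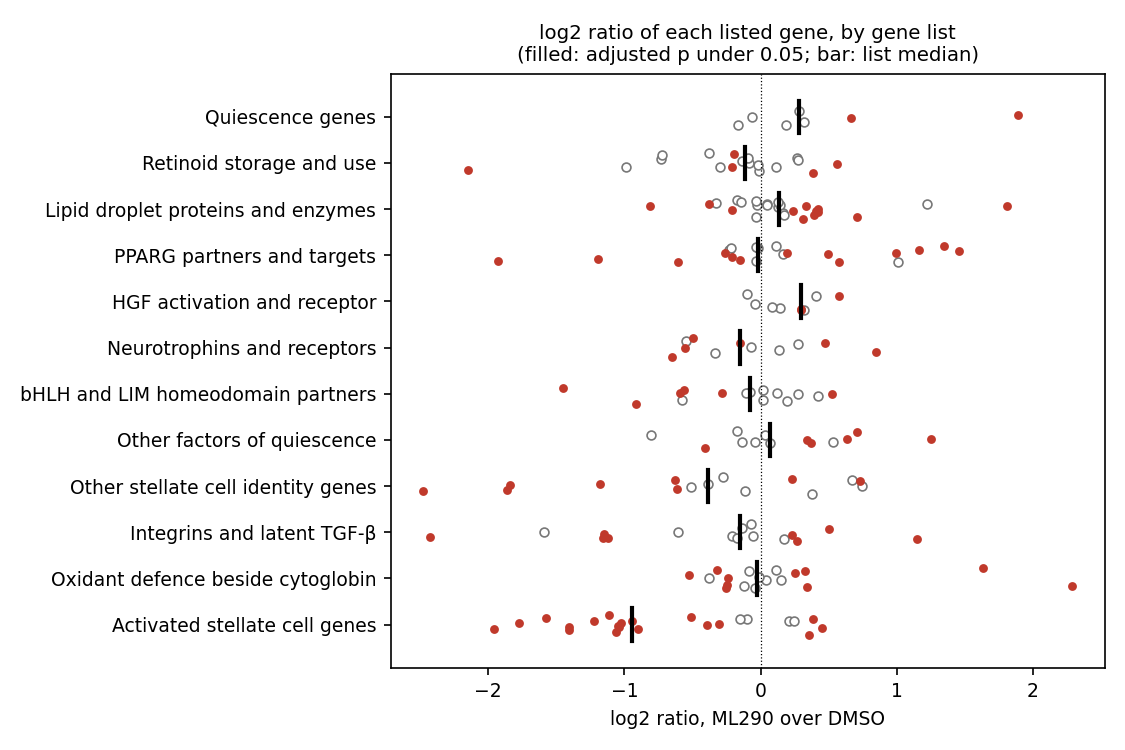
Each point is the log2 ratio of ML290 over DMSO of 1 listed gene, in rows by gene list, red where the adjusted p is under 0.05 and open otherwise, with a black bar at the list median. The quiescence genes have their median at 0.28, the activated stellate cell genes at -0.94, and the related lists have called genes on both sides of 0 except HGF activation and receptor, whose 3 called genes are all higher.

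The cell line was checked against markers of its labelled type. Of 22 further stellate cell identity genes 15 were listed, 2 called higher and 6 lower by the authors' deposited table (53.3% against 35.1% of all rows), with a median log2 ratio of -0.39. VIM, the mesenchymal intermediate filament, had 2685 and 2284 and the receptor PDGFRB 43.5 and 98.5, with ML290 and DMSO, in the authors' deposited table. PDGFRB was thus 2.26-fold lower, and the proteoglycans LUM and DCN were 3.58-fold and 5.57-fold lower at means under 5, in the authors' deposited table (adjusted p = 2.96e-07, 4.23e-05 and 0.00128). The 2 called higher were RELN, 1.66-fold at 4.65 against 2.80, and VIM, 1.18-fold, in the authors' deposited table (adjusted p = 0.0179 and 0.0101). Of the intermediate filaments used to mark stellate cells in tissue, DES was not listed. GFAP was near the floor with 0.119 and 0.144, about 9 and 12 reads, in the authors' deposited table. Since the filter behind the listed rows is not given, an unlisted gene cannot be said to be low.

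Markers of other liver cells were listed in part. The calls among them stand beside 35.1% of all rows called, 19.5% higher and 15.6% lower. Of 10 hepatocyte markers 2 were listed, with summed levels of 1.60 with ML290 and 1.88 with DMSO, and of 10 endothelial markers 4, with 2.28 and 3.04. None of them was called in the authors' deposited table (0 and 1 at an unadjusted p under 0.05, met by 44% of all rows). Of 10 macrophage and leukocyte markers 4 were listed, with summed levels of 76.1 and 41.4, mostly CD68, a lysosomal protein also made by other cells, which was 2.04-fold higher by the authors' deposited table (adjusted p = 1.48e-05), while PTPRC and CD163 were not listed. CD14, the other one called, fell from 5.38 to 3.59 in the authors' deposited table (adjusted p = 0.0169), so 50% of the 4 listed were called. Of 8 cholangiocyte markers 3 were listed, with summed levels of 48.4 and 40.8, mostly SOX9, and KRT19 and EPCAM were not. All 3 were called in the authors' deposited table (100% against 35.1% of all rows). SPP1 was 2.04-fold and SOX9 1.19-fold higher and KRT7 1.80-fold lower by the authors' deposited table (adjusted p = 0.000900, 0.0421 and 0.000707). Of 10 portal fibroblast and mesothelial markers 6 were listed, with 952.1 and 720.5. The authors' deposited table calls 1 higher and 4 lower (83.3% against 35.1% of all rows). The sum was mostly GREM1, 1.94-fold higher, while THY1 was 1.70-fold and FBLN2 1.79-fold lower by the authors' deposited table (adjusted p = 5.78e-07, 1.23e-07 and 3.61e-06). The part of these markers in the values of the quiescence genes was not tested. In a bulk culture, fewer cells expressing a gene and less RNA per cell cannot be told apart.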

How the data were processed

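RNA of 8 LX-2 cultures, 4 per group, was sequenced. Per the submitters' processing notes, STAR, Partek and GRCh38 were used, with no roles or versions, and the annotation, strand use, filter, scaling and statistical model were not given in the sources used here. For the 8 libraries the authors deposited 1 table of their own comparison, with 14870 rows and 14869 distinct symbols. Per the file headers it holds least-squares group means, a signal that reads as normalised read counts, a summed signal over all samples, the ratio of the means, a signed fold change (a score below 0 where ML290 is lower), the unadjusted p-value and a step-up adjustment of it. Recomputing the Benjamini-Hochberg adjustment over the rows gave the same number of calls, 5226.

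Computed here were log2 ratios, ranks, counts of calls and gene list medians. Reads behind a group mean were estimated from the steps of low values: 0.0522 for ML290 and 0.0476 for DMSO, summed over 4 libraries. Of 595 low values with ML290 87.9% fell within 0.15 of a whole read, and of 555 with DMSO 95.7%, with steps fitted to those same values. If values are CPM, as is assumed here and not stated, a library of the ML290 group held about 19200000 reads and one of the DMSO group about 21000000. The listed means sum to 698420 with ML290 and 702849 with DMSO, so under that assumption the listed rows do not hold all reads. Ratio intervals are 95% exact Clopper-Pearson intervals of the reads, Poisson intervals are exact too, and both cover counting error only. Whether the cultures were separate experiments is not said beyond their being called biological replicates. Of the rows, 13991 (94.1%) matched a GENCODE 29 symbol. Scripts ran on scipy 1.17.1, pandas 2.3.3 and numpy 2.4.6 under Python 3.11.15, with plots from matplotlib 3.10.9, and the adjustment and the step fit were tested on simulated data.

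The 9 genes and all 16 other lists were chosen with earlier results of these data known. Named genes are the 9, the 3 of each list with the smallest adjusted p and genes set by role, except that not every marker or activation gene so chosen is named and some results are not reported here. PLIN1, PLIN4, PLIN5, TCF4, WT1, VIM, FABP4, CD36, ADIPOQ, PTPRC, CD163, KRT19, EPCAM and the genomic neighbours were named after their values were seen. So were PNPLA3, ACSL3, RARG, ADH5, NRROS, LTBP1, ITGB3 and RELN. Alternatives were a threshold of 0.01, Benjamini-Yekutieli adjustment, a minimum level of 1, a minimum fold of 1.5, pseudocounts of 0.1 and 0.5, centring, and, added after the data were seen, an unadjusted p under 0.05.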

Additional observations from a re-analysis of the deposited data

How the results depend on the processing

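The count of quiescence genes called stayed at 2, TCF21 and PLIN2, under an adjusted p under 0.01, Benjamini-Yekutieli adjustment, a minimum level of 1, a minimum fold of 1.5 and an unadjusted p under 0.05, the last chosen after seeing the data. The log2 ratios of the 7 genes kept their sign with pseudocounts of 0.1 and 0.5 and after centring, and TCF21 moved most, to 1.35 with a pseudocount of 0.5, which by construction shrinks low values. The median of the 7 moved from 0.28 to 0.17 with that pseudocount and to 0.19 with 0.1, both applied to the median after seeing the data. Of all rows, 5226 in the reported count, 3413 passed an adjusted p under 0.01, 2834 the Benjamini-Yekutieli adjustment and 1604 a minimum fold of 1.5. Of the 77 related genes called, 46 passed Benjamini-Yekutieli and 33 the minimum fold. That fold left 1 of 5 retinoid genes, 3 of 12 lipid droplet genes, 7 of 13 PPARG-related, 0 of 3 HGF-related, 2 of 6 neurotrophin, 3 of 6 bHLH and LIM, 3 of 6 other factor, 5 of 8 integrin and latent TGF-β and 2 of 10 oxidant defence genes. Benjamini-Yekutieli left 2 retinoid, 6 PPARG-related, 3 neurotrophin, 3 other factor, 3 of 8 identity and 1 of 2 leukocyte genes. A threshold of 0.01 left 3, 8, 3 and 1 of the retinoid, PPARG-related, identity and leukocyte genes. A minimum level of 1 left 3 of 5 portal fibroblast genes. An unadjusted p under 0.05 passed 8 retinoid genes and 1 endothelial gene, where the reported endothelial count was 0. The remaining list counts, 58 of 80, stayed within 1.5 times. No paired analysis was possible because the table holds group means only, and for the same reason no replicate could be left out. Depth limits CYGB most, with about 34 reads over all libraries.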

Other observations

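Genes that lie beside the quiescence genes on the chromosome were looked up as a further description. Within 250 kb of TCF21 the listed genes were TBPL1 and SLC2A12, and the authors' deposited table calls neither, with 8.21 against 7.09 (adjusted p = 0.36) and 1.71 against 2.31 (adjusted p = 0.111), ML290 first. Of 5 listed genes within 250 kb of PLIN2, 1 was called in the authors' deposited table (20% against 35.1% of all rows). This was the ribosomal protein gene RPS6, 1.17-fold higher by the authors' deposited table (adjusted p = 0.00224). The nearest one, HAUS6, had 35.5 against 30.7 in the authors' deposited table (adjusted p = 0.0546). Around CYGB the authors' deposited table calls 5 of 11 listed neighbours higher and 1 lower (54.5% against 35.1% of all rows), led by the sphingosine kinase SPHK1, 2.18-fold higher at 96.4 against 44.2 (adjusted p = 6.52e-07). Around ECM1, the authors' deposited table calls 4 of 12 listed neighbours higher and 3 lower (58.3%). The cathepsin CTSS was 2.40-fold higher and the matrix protein gene ADAMTSL4 1.69-fold lower in the authors' deposited table (adjusted p = 1.51e-05 and 0.000568). Around NGFR 1 of 6 listed neighbours was called higher and 1 lower (33.3%), and around PPARG 1 of 3 was called lower (33.3%). None was called around HGF, LHX2 and LRAT, with 1, 2 and 1 listed neighbours.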
